A study of Mus musculus with 2 samples.

Results

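Ependymal cells of the mouse hippocampus preparation were described from single-cell RNA counts. A barcode was counted as ependymal when it met 3 conditions. It held 500 genes or more, with no more than 15% of its UMIs (unique molecular identifiers, one per captured transcript) from mitochondrial genes. It had at least 1 UMI of 4 or more of the 6 genes Foxj1, Tmem212, Ccdc153, Rarres2, Dynlrb2 and 1700012B09Rik. It had fewer than 3 of the 4 choroid plexus genes Kcne2, Folr1, Clic6 and Kl. By this rule 199 of 14560 filtered barcodes were ependymal, 49 in the 60TM library and 150 in the WT library.

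60TM denotes mice of a GFAP-hGFAP line on the C57BL6/J background, in which a GFAP promoter drives human GFAP; the study used them to model Alexander disease, which affects astrocytes. WT denotes C57BL6/J mice. Both were 7 weeks old, 3 mice are stated for each genotype, and each genotype is 1 library, so no difference between them has a replicate check and none was tested. Hippocampi were dissociated with papain, and the labels name no sort; how much ventricular wall was included is not stated. Gfap counts are those assigned to the mouse gene, and the sources used here do not say whether reads of the transgene are among them.

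Ependymal cells are the ciliated epithelium of the brain ventricles. Each carries a tuft of motile cilia whose beating moves cerebrospinal fluid along the wall. The shaft of a motile cilium, the axoneme, is a ring of microtubule doublets around a central pair. Dynein arms drive the beat, radial spokes and the nexin-dynein regulatory complex control it, and intraflagellar transport builds and maintains the shaft. RFX factors and Foxj1 switch on motile cilia genes. Among intermediate filaments, ependymal cells are known for vimentin (Vim), whereas Gfap is best known from astrocytes.

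The filtered libraries held 8125 barcodes with a median of 7666 UMIs in 60TM and 6435 barcodes with a median of 7481 UMIs in WT. Ependymal cells had a median of 6235 UMIs (range 941 to 101017) in 60TM and 12523.5 UMIs (714 to 86111) in WT, and summed to 790555 UMIs in 60TM and 2851921 in WT. The deepest 60TM barcode gave 12.8% of the 60TM ependymal UMIs. Of the barcode sequences, 20 occurred in both libraries, none of them ependymal. Levels below are counts per 1000000 UMIs of the summed ependymal cells (CPM), and ratios are 60TM over WT. Brackets hold 95% intervals, Poisson for sums, exact binomial for shares and conditional binomial for ratios, which cover counting error only. Because only the 3′ ends of transcripts were counted, levels are compared between libraries and cell classes, not between genes.

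The 6 genes of the rule were high by construction and are given as a description. Foxj1, the forkhead factor that drives motile ciliogenesis (chr11:116330704-116335399, minus strand, GRCm38, GENCODE M21), had 562 UMIs in 44 of 49 cells in 60TM (711 CPM) and 1777 UMIs in 135 of 150 cells in WT (623 CPM). With cells thinned to 2000 UMIs, 69.9% of ependymal cells and 0.247% of microglia had a Foxj1 UMI in 60TM, and 65.9% of ependymal cells and 0.308% of microglia in WT; median depths of microglia were 6728 UMIs in 60TM and 5685.5 UMIs in WT. Tmem212, a membrane protein gene, was at 2314 CPM in 60TM and 2354 CPM in WT. Ccdc153, a coiled-coil gene of ciliated cells, was at 2099 CPM in 60TM and 2234 CPM in WT. Rarres2, the secreted protein chemerin, was at 3208 CPM in 60TM and 3249 CPM in WT. Dynlrb2, a dynein light chain, was at 825 CPM in 60TM and 1045 CPM in WT, a ratio of 0.789 (0.724 to 0.859), and 1700012B09Rik at 402 CPM in 60TM and 522 CPM in WT, a ratio of 0.770 (0.680 to 0.870). These values chose the cells and say nothing further about them. Of the members, 34 in 60TM and 125 in WT carried all 6 genes. Members with exactly 4 numbered 5 in 60TM and 6 in WT, and cilia genes took a median of 3.92% of their UMIs in 60TM and 4.40% in WT. Just outside, the cells with exactly 3 that met the other conditions had medians of 0.908% in 60TM (23 cells) and 1.18% in WT (14 cells); with the choroid plexus condition left aside, 70 filtered barcodes in 60TM and 23 in WT had exactly 3.

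The label was checked against markers of 13 other cell types, and some barcodes also carried markers of another type. Choroid plexus Kcne2 was at 0 UMIs in the ependymal cells of both libraries. Clic6 and Kl were at 5 and 2 UMIs in 60TM and at 27 and 0 UMIs in WT. The rule limits these genes, so their low counts are no check of the label. Of 10 choroid plexus markers, including the 4 of the rule, 9 were detected in 60TM (575 UMIs, 727 CPM) and 8 in WT (1978 UMIs, 694 CPM). The whole libraries had 19918 CPM in 60TM and 5614 CPM in WT. The 4 rule genes gave 191 of the members' UMIs in 60TM and 860 in WT, and Ttr 205 and 66. Folr1, the folate receptor that the rule treats as a choroid gene, was present in 34 of 49 members in 60TM (233 CPM, against 1011 CPM in choroid plexus cells) and in 128 of 150 members in WT (292 CPM, against 840 CPM in choroid plexus cells). Microglia had Folr1 in 1.36% of cells in 60TM and 0.22% in WT; thinned shares were 40.1% of ependymal cells and 0.508% of microglia in 60TM, and 42.4% of ependymal cells and 0.062% of microglia in WT. The astrocyte list of 10 markers summed to 3186 CPM in 60TM and 2245 CPM in WT, with 10 of 10 detected in each. Each cell's share from that list ran from 0.0578% to 1.77% in 60TM and from 0% to 1.42% in WT. Of 8 tanycyte markers, 6 were detected in 60TM (234 UMIs, 296 CPM, against 152 CPM in the whole library) and 4 in WT (745 UMIs, 261 CPM, against 123 CPM in the whole library), with Rax and Gpr50 at 0 in both. The 8 endothelial markers were all detected and summed to 2023 CPM in 60TM, against 977 CPM in the whole library, and to 2239 CPM in WT, against 678 CPM in the library. A member's median share from this list was 0.183% in 60TM and 0.223% in WT. The endothelial list holds Pltp, and the astrocyte list Aqp4 and Gja1, which are also on the ependymal identity list used below. These sums therefore do not stand for RNA of other cell types alone. Mural markers summed to 711 CPM in 60TM and 827 CPM in WT, against 460 and 356 CPM in the 60TM and WT libraries, with Kcnj8 and Abcc9 at 0 in the WT members. Of 8 meningeal fibroblast markers, all were detected in 60TM (134 UMIs, 170 CPM) and 3 in WT (27 UMIs, 9.47 CPM). The mixed definition that follows does not use the tanycyte, endothelial, mural, meningeal fibroblast or choroid plexus list. Some members carried more RNA of a second cell type. By a definition added after the data were seen, 2 kinds of barcodes are called mixed here. The first have at least 0.3% of UMIs from the microglial, oligodendrocyte, neuron or immature neuron list, and the second at least 1% from the astrocyte list. There were 6 in 60TM and 22 in WT, which left 43 unmixed members in 60TM and 128 in WT. In 60TM, 2 of them met the microglial limit, 2 the astrocyte, 1 the oligodendrocyte and 1 the neuron limit, the last with 1.45% of its UMIs from the neuron list. In WT, 14 met the microglial, 8 the oligodendrocyte, 3 the astrocyte and 2 the immature neuron limit, some more than one. Without mixed barcodes the astrocyte list summed to 2262 CPM in 60TM and 2279 CPM in WT. A doublet caller marked 6 members in 60TM and 27 in WT, of which 2 in 60TM and 19 in WT were mixed. Whether mixed barcodes hold a second cell or free RNA was not tested.

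**Figure D1:**
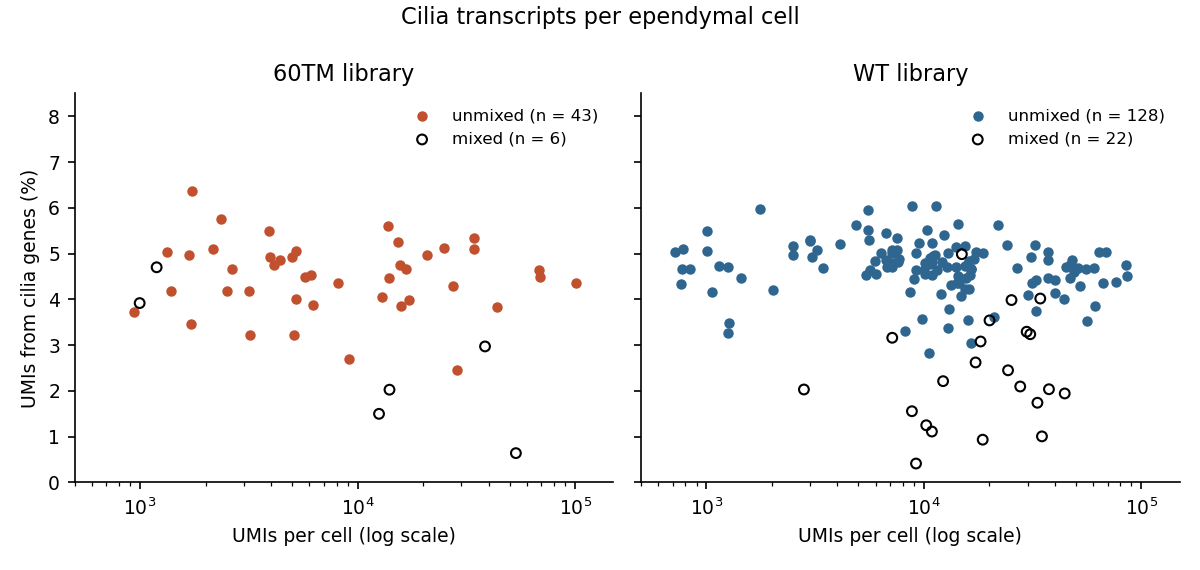
Share of each ependymal cell's UMIs that came from 251 cilia genes (y axis, percent) against its UMIs (x axis, log scale), 60TM on the left and WT on the right; filled points are unmixed and open points mixed members. The unmixed cells of both libraries lie in the same band, around medians of 4.54% in 60TM and 4.72% in WT, and mixed cells lie mostly lower.

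Cilia genes, taken from 12 lists and leaving out the genes of the rule, made up a median of 4.49% of a cell's UMIs in 60TM (0.64% to 6.36%) and 4.67% in WT (0.413% to 6.05%). The cells of the libraries overlapped over nearly the whole range. Astrocytes had medians of 0.596% in 60TM and 0.633% in WT, choroid plexus cells 0.817% in 60TM and 0.861% in WT, and microglia 0.235% in 60TM and 0.244% in WT. Ependymal cells were 0.603% (0.446 to 0.797) of filtered barcodes in 60TM and 2.33% (1.98 to 2.73) in WT, a ratio of 0.259 (0.183 to 0.359). The ratio was 0.266 without mixed barcodes and 0.504 where no choroid plexus gene was allowed, which left 14 members in 60TM and 22 in WT. Choroid plexus cells, which lie in the same ventricles, numbered 230 in 60TM and 53 in WT; the part of dissection in these shares was not tested.

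The transcription factors that direct multiciliogenesis were mostly detected. Myb, a transcription factor active in cells that are becoming multiciliated, had 123 UMIs in 60TM (156 CPM) and 381 in WT (134 CPM), 173-fold over all other filtered cells of the library in 60TM and 111-fold in WT. Rfx2, a factor that activates motile cilia genes with Foxj1, had 68.3 CPM in 60TM and 57.9 CPM in WT. Rfx3, of the same family, had 104 CPM in 60TM and 77.5 CPM in WT. Trp73, which acts upstream of Foxj1, had 48.1 CPM in 60TM and 54.7 CPM in WT. The early switches were near the limit: Mcidas was at 0 UMIs in both libraries, Gmnc at 5 UMIs in 60TM and 23 in WT, and Ccno, needed for centriole amplification, at 3 UMIs in 60TM and 20 in WT. Deup1, the deuterosome gene of that process, had 24 UMIs in 60TM and 86 in WT, 199-fold over other cells in 60TM and 258-fold in WT.

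Many axonemal genes stood far above their level in other cells. Of genes with at least 50 UMIs in the filtered library, 128 of 229 cilia genes in 60TM and 153 of 241 in WT were at least 10-fold above the other filtered cells, where 3.83% of all 15711 genes in 60TM and 5.71% of all 15267 in WT were. Since the cells were chosen by cilia genes, this is a description and no test. Inner dynein arm genes had a median of 154-fold in 60TM and 295-fold in WT, with 12 of 12 measured genes past 10-fold in 60TM and 13 of 13 in WT. Central pair genes had medians of 71.1-fold in 60TM and 227-fold in WT. Radial spoke genes had medians of 20.5-fold in 60TM and 71.8-fold in WT. In the ependymal cells alone, these 3 lists summed to 2086, 3328 and 2303 CPM in 60TM and 2201, 3404 and 2579 CPM in WT. The other filtered cells differed between the libraries, with 230 choroid plexus cells in 60TM and 53 in WT. Their part in these medians was not tested. Intraflagellar transport genes, which primary cilia of other cells also use, had medians of 6.16-fold in 60TM and 6.34-fold in WT, and BBSome and transition zone genes 5.36-fold in 60TM and 5.59-fold in WT. Tubulins and their modifying enzymes were at 0.974-fold in 60TM and 1.67-fold in WT, with Tubb4b, the tubulin of cilia, at 8.55-fold in 60TM and 10.9-fold in WT.

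**Figure D2:**
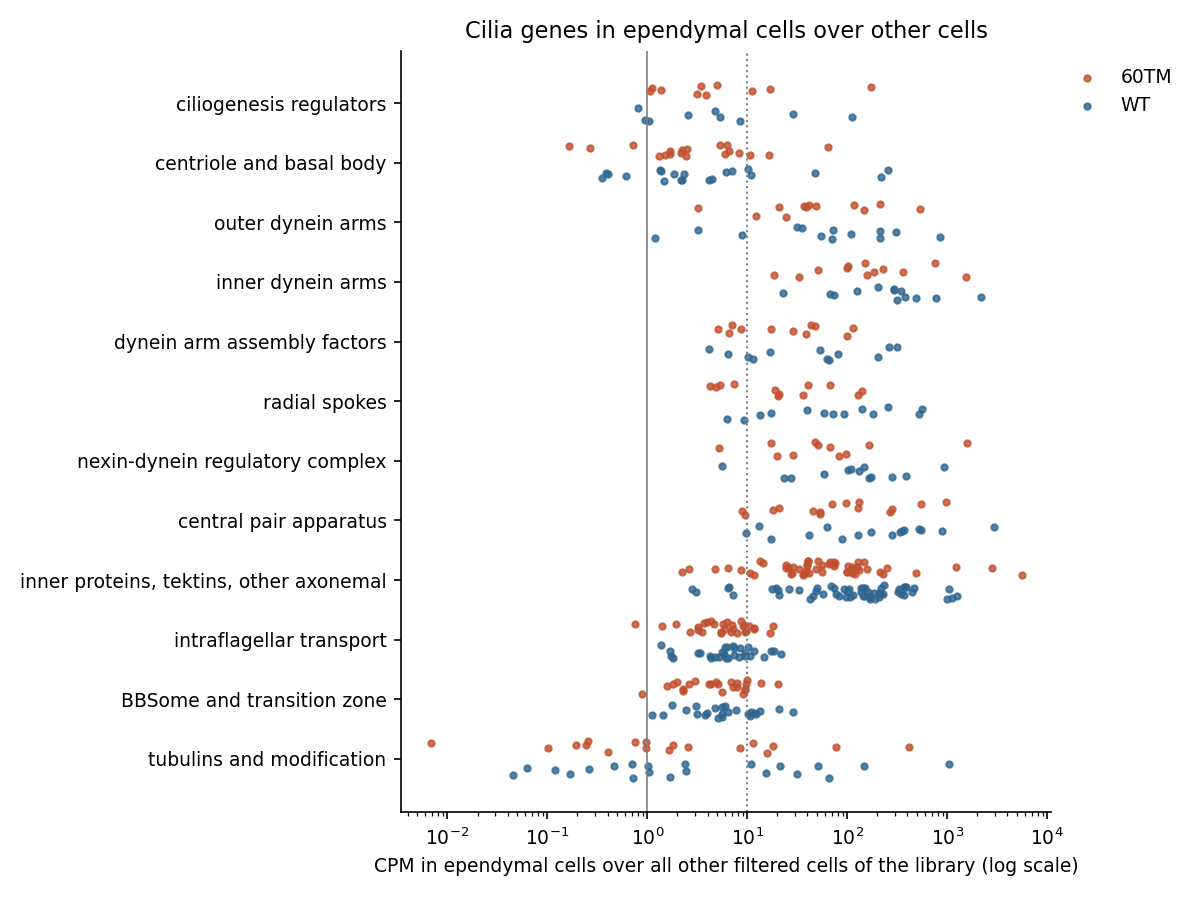
Each point is a cilia gene with at least 50 UMIs in its library; the x axis (log scale) is its CPM in ependymal cells over that in all other filtered cells, with 60TM above WT in each list and a dotted line at 10-fold. Axonemal lists lie mostly right of the dotted line in both libraries, whereas intraflagellar transport, BBSome and tubulin lists lie mostly left of it.

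Some family members used in sperm were at or near 0. Rsph6a, a radial spoke gene best known from sperm, had 0 UMIs in both libraries, whereas its relative Rsph4a had 263 in 60TM and 1035 in WT. Spag6 had 0 UMIs in 60TM and 1 in WT, and its near copy Spag6l had 194 in 60TM and 769 in WT, a split that read assignment between the copies can affect. Dnah8, a sperm outer arm dynein, had 0 UMIs in 60TM and 3 in WT, while Dnah5 had 188 in 60TM and 751 in WT.

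The promoters of cilia genes were searched for the X-box, the palindromic site bound by RFX factors, and for a forkhead site. The window was 250 bases before to 50 after each start in the RefSeq GRCm38.p6 promoter table. The strict X-box was GTTNCC, 0 to 3 bases and GGNAAC, which is its own reverse complement, and the relaxed one GTNNCC, 0 to 3 bases and GGNNAC, which includes the strict one. Of 251 cilia genes, 212 matched the table; 6.13% of them had a strict and 20.8% a relaxed X-box, against 0.936% and 4.38% of all 27025 genes in the table. The BBSome and transition zone list reached 50% for the relaxed form and the dynein assembly list 44.4%, while inner dynein arms had none in 11 matched genes. The forkhead site GTAAACA, on either strand, stood in 4.25% of cilia genes and 4.05% of all genes. Of the 6 rule genes, 4 matched, and none held any of these letters. A match is a string of letters, not a measured binding site.

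Upstream of the RefSeq start, 11 cilia genes held 12 strict X-boxes. Of these stretches, with up to 40 bases on either side within the 250 upstream bases, 6 overlap an exon annotated in GENCODE M21 and are not printed; the other 6 are shown as examples of the site, 5′ to 3′ on the gene's strand, the X-box in capitals. They belong to Fam183b, a microtubule inner protein (chr11:58801961-58802016, minus strand), Iqca of the nexin-dynein regulatory complex (chr1:90153483-90153576, minus), Pifo, a gene of cilium disassembly and node cilia (chr3:106001498-106001557, minus), Ccdc151, which docks the outer dynein arm (chr9:22002635-22002708, minus), Zbbx, a B-box gene on the axonemal list (chr3:75143773-75143856, minus), and Mks1 of the transition zone (chr11:87853151-87853214, plus). By GENCODE the stretches of Pifo and Zbbx lie inside the gene, which has a longer transcript, between its exons, and the other 4 lie before it.
Fam183b: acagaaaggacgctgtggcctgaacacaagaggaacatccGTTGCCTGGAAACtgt
Iqca: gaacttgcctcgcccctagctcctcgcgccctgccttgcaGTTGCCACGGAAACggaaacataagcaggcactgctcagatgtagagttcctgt
Pifo: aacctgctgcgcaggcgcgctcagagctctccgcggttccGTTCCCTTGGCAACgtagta
Ccdc151: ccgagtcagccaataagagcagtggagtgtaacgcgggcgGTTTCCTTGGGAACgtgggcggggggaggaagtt
Zbbx: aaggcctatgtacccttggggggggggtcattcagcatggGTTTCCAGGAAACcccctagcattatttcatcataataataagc
Mks1: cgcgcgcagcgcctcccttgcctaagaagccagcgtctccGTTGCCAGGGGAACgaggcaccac

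These genes stood at different heights over other cells. Fam183b was at 837 CPM in 60TM and 944 CPM in WT, 1223-fold over other cells in 60TM and 1047-fold in WT. Zbbx was at 62.0 CPM in 60TM and 48.4 CPM in WT, 116-fold over other cells in 60TM and 171-fold in WT. Mks1 was at 43.0 CPM in 60TM and 30.9 CPM in WT, 4.33-fold over other cells in 60TM and 3.04-fold in WT. Ift57 of intraflagellar transport, whose X-box lies in a stretch that overlaps an exon, was 3.65-fold over other cells in 60TM and 5.90-fold in WT. An upstream X-box thus stood both in genes with few UMIs outside the class and in widely expressed ones.

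Between the genotypes the cilia genes were close to level among cells chosen by ciliated-cell genes. With at least 50 UMIs over both libraries, 228 of 251 were measured: 4 were at least 1.5-fold higher in 60TM, 9 at least 1.5-fold lower, and 215 in between, with a median log2 ratio of -0.03. Over all 8718 genes measured in ependymal cells, 8.65% were at least 1.5-fold higher and 8.56% lower, with a median of 0.01. The cilia genes past 1.5-fold were thus a smaller share than the background in both directions. That background was not matched for UMI count, so the smaller share is not read as a trait of cilia genes. Without mixed barcodes the counts were again 4 higher and 9 lower, of 226, with a median of -0.01, where 5.78% of all 7771 genes were higher and 7.46% lower. The genes differed in part: B9d2 (ratio 1.59) took the place of Ahi1 among the higher ones, and Cfap99 (0.646) and Tubb2b (0.533) that of Kif6 and Tubb4a among the lower ones. With 3 of 6 rule genes sufficing, 86 cilia genes were at least 1.5-fold lower, with a median of -0.47. Members of both libraries were chosen by ciliated-cell genes, so cells low in cilia genes can be left out. The level result can thus be partly set by the rule. None of the 9 regulators measured was past 1.5-fold in either direction.

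Most motor genes lay within 1.5-fold between the libraries, among cells chosen by ciliated-cell genes. Dnah5 and Dnah9, outer arm heavy chains, were at 238 and 258 CPM in 60TM and at 263 and 243 CPM in WT, with ratios of 0.903 (0.766 to 1.06) and 1.06 (0.903 to 1.24). None of the 12 outer arm or 13 inner arm genes measured was past 1.5-fold in either direction. Over all genes 8.65% were higher and 8.56% lower, a background not matched for UMI count. Dnah6, an inner arm heavy chain, was at 307 CPM in 60TM and 362 CPM in WT, a ratio of 0.849 (0.736 to 0.978). Of 12 assembly factors, Cfap300 was higher, with 40 UMIs in 60TM and 85 in WT and a ratio of 1.70 (1.14 to 2.50), and Dnaaf1 lower, with 19 UMIs in 60TM and 134 in WT and a ratio of 0.512 (0.299 to 0.830).

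Among regulators of the beat, radial spoke genes had the lowest median, a log2 ratio of -0.22, with 0 of 13 higher and 3 lower (all genes 8.65% and 8.56%). Ropn1l, a spoke protein, had 19 UMIs in 60TM and 165 in WT, a ratio of 0.415 (0.244 to 0.670). Ak8 had 27 UMIs in 60TM and 160 in WT, a ratio of 0.609 (0.389 to 0.919). Rsph3b, which has a close copy in the mouse genome, had 8 in 60TM and 54 in WT, a ratio of 0.534 (0.220 to 1.13). The interval of Rsph3b includes 1. The spoke gene Rsph1, with 761 UMIs in 60TM and 3124 in WT, was at 963 CPM in 60TM and 1095 CPM in WT. All 13 nexin-dynein and 16 central pair genes lay within 1.5-fold, for example Hydin, a central pair protein whose loss causes hydrocephalus in mice, at 306 CPM in 60TM and 306 CPM in WT, a ratio of 0.999 (0.863 to 1.15). Ccdc39, a ruler of the axonemal repeat, was at 319 CPM in 60TM and 270 CPM in WT, a ratio of 1.18 (1.02 to 1.36).

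In the shaft, 54 of 56 inner protein, tektin and other axonemal genes lay within 1.5-fold. For this and the lists below, 8.65% of all genes were higher and 8.56% lower. Mns1 was at 482 CPM in 60TM and 369 CPM in WT, and Meig1 at 768 CPM in 60TM and 955 CPM in WT. Kif6, with 41 UMIs in 60TM and 230 in WT, and Lrrc34, with 24 in 60TM and 149 in WT, were the 2 lower genes; the ratio of Kif6 was 0.643 (0.450 to 0.900), and 0.704 without mixed barcodes. All 28 intraflagellar transport genes lay within 1.5-fold; Ift74 was at 245 CPM in 60TM and 186 CPM in WT, a ratio of 1.32 (1.11 to 1.56). Of 23 BBSome and transition zone genes, Bbs2 and Bbs5 were lower, with 15 and 14 UMIs in 60TM and 89 and 82 in WT, and both intervals include 1. Ahi1 was higher, with a ratio of 1.61 (1.33 to 1.93) that was 1.03 without mixed barcodes. At the base of the cilium, Cetn2, a centrin, was at 530 CPM in 60TM and 690 CPM in WT, a ratio of 0.768 (0.689 to 0.853), and Cep89 was higher with 49 UMIs in 60TM and 114 in WT. Tubb4b was at 2642 CPM in 60TM and 2471 CPM in WT, and Agbl4 was higher with 23 UMIs in 60TM and 53 in WT. Tubb4a, an oligodendrocyte and neuron tubulin, had 3 UMIs in 60TM and 417 in WT, 97.8% of the WT ones in mixed barcodes.

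**Figure D3:**
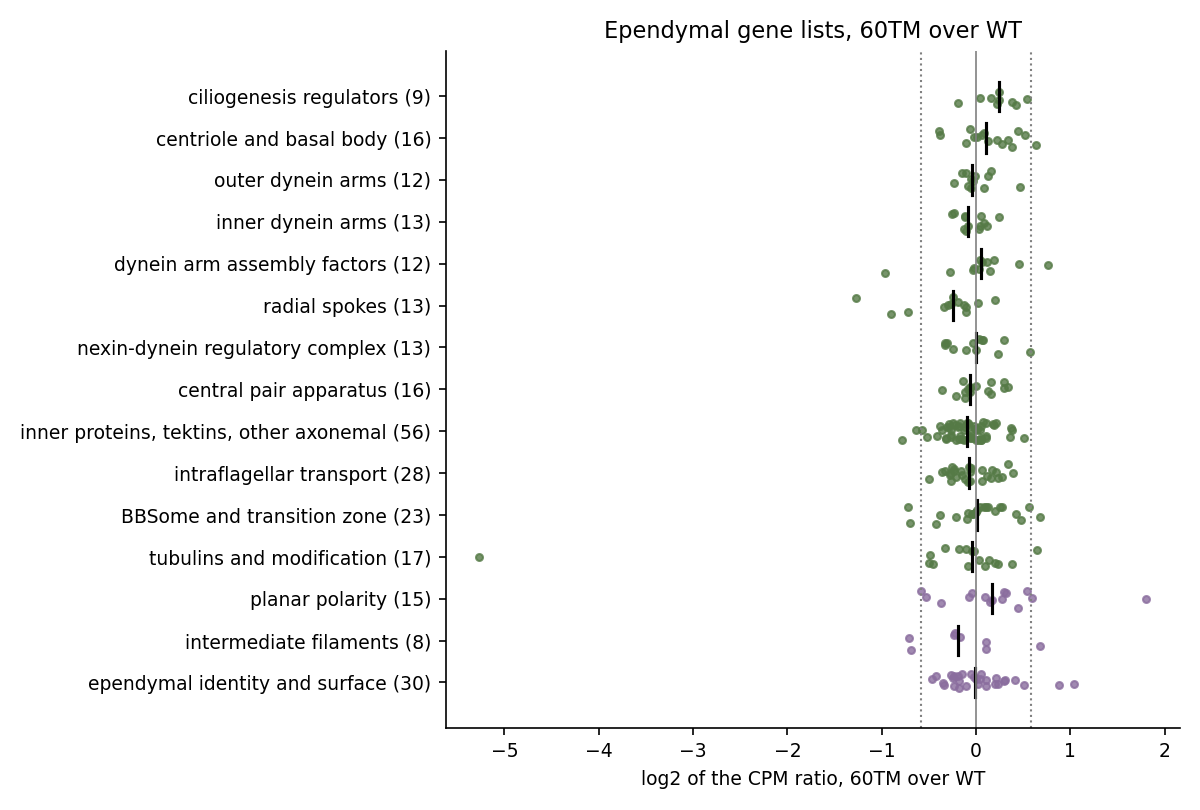
Log2 of the CPM ratio, 60TM over WT, for each gene with at least 50 UMIs over both libraries; numbers in brackets give the genes measured, black bars the list's median and dotted lines 1.5-fold. Green points are the 12 cilia lists and purple points other ependymal lists; the far left point is Tubb4a.

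Planar polarity genes, which align the beat across the wall, had a median log2 ratio of 0.17, with 2 of 15 higher and 0 lower (all genes 8.65% and 8.56%). Without mixed barcodes 14 were measured, with the same 2 higher, 1 lower (all genes 5.78% and 7.46%) and a median of 0.09. The lower one was Pkd1, polycystin 1, with a ratio of 0.554 (0.311 to 0.928) without mixed barcodes, which held 51.4% of its UMIs in 60TM and 16.2% in WT, and 0.971 with them. Dvl1, a dishevelled protein, had 33 UMIs in 18 cells in 60TM and 34 UMIs in 26 cells in WT, a ratio of 3.50 (2.10 to 5.83), and 2.92 without mixed barcodes. Vangl2 had 36 UMIs in 60TM and 86 in WT, a ratio of 1.51 (0.994 to 2.25). Fzd3, a polarity receptor, was at 447 CPM in 60TM and 358 CPM in WT. The counts of Dvl1 and Vangl2 are small, and the interval of Vangl2 includes 1.

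Gfap (chr11:102887336-102900912, minus strand) was higher in the 60TM ependymal cells, by less than in astrocytes. It had 212 UMIs in 30 of 49 cells in 60TM, which is 268 CPM (233 to 307), and 477 UMIs in 97 of 150 cells in WT, which is 167 CPM (153 to 183), a ratio of 1.60 (1.36 to 1.89). Mixed barcodes held 22.2% of the 60TM UMIs and 9.85% of the WT ones, and without them the ratio was 1.36 (1.13 to 1.63). The ratio was 2.93 where no choroid plexus gene was allowed and 6.07 where 3 of the 6 rule genes sufficed, which added 23 cells in 60TM and 14 in WT. Per cell, the lowest was 0, the median 1.55 and the highest 11.2 UMIs in 10000 in 60TM, and the lowest was 0, the median 0.875 and the highest 20.9 in WT. The 60TM cells lay within the range of the WT cells. With cells thinned to 2000 UMIs, leaving out 8 cells in 60TM and 14 in WT, the expected share of cells with a Gfap UMI was 33.1% (20.1 to 50.6) in 60TM and 27.4% (19.9 to 35.5) in WT, intervals that overlap. Astrocytes had 1025 CPM in 60TM and 277 CPM in WT, a ratio of 3.70 (3.54 to 3.86). Gfap was thus higher in both cell types, with the wider ratio in astrocytes; the difference between the ratios was not tested. Microglia, which should lack Gfap, had 15.1 CPM in 60TM and 3.33 CPM in WT. Of microglia, 6.61% in 60TM and 2.02% in WT had a Gfap UMI, and 2.26% in 60TM and 0.672% in WT when thinned. The astrocyte list was level between the libraries without mixed barcodes, as given above; its part in the Gfap difference was not tested.

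Vim (chr2:13573927-13582826, plus strand) was slightly lower in 60TM ependymal cells by the rule used. It had 1227 UMIs in 45 of 49 cells in 60TM (1552 CPM) and 5187 UMIs in 145 of 150 cells in WT (1819 CPM), a ratio of 0.853 (0.801 to 0.908). Counted as a mean over cells, in which each cell weighs the same, the ratio was 0.979, and without barcodes with markers of other classes 1.03. It was 1.13 where 3 of the 6 rule genes sufficed and 1.45 where no choroid plexus gene was allowed, so the direction depends on how members are chosen. Thinned shares of cells with a Vim UMI were 87.9% in 60TM and 89.5% in WT, against 1.90% of microglia in 60TM and 1.59% in WT; unthinned shares of microglia were 5.98% in 60TM and 4.31% in WT. Astrocytes went the other way, with 539 CPM in 60TM and 147 CPM in WT, a ratio of 3.68 (3.46 to 3.91), and microglia had 13.9 CPM in 60TM and 10.2 CPM in WT. Over all other filtered cells, ependymal Vim stood 5.67-fold higher in 60TM and 29.1-fold higher in WT.

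**Figure D4:**
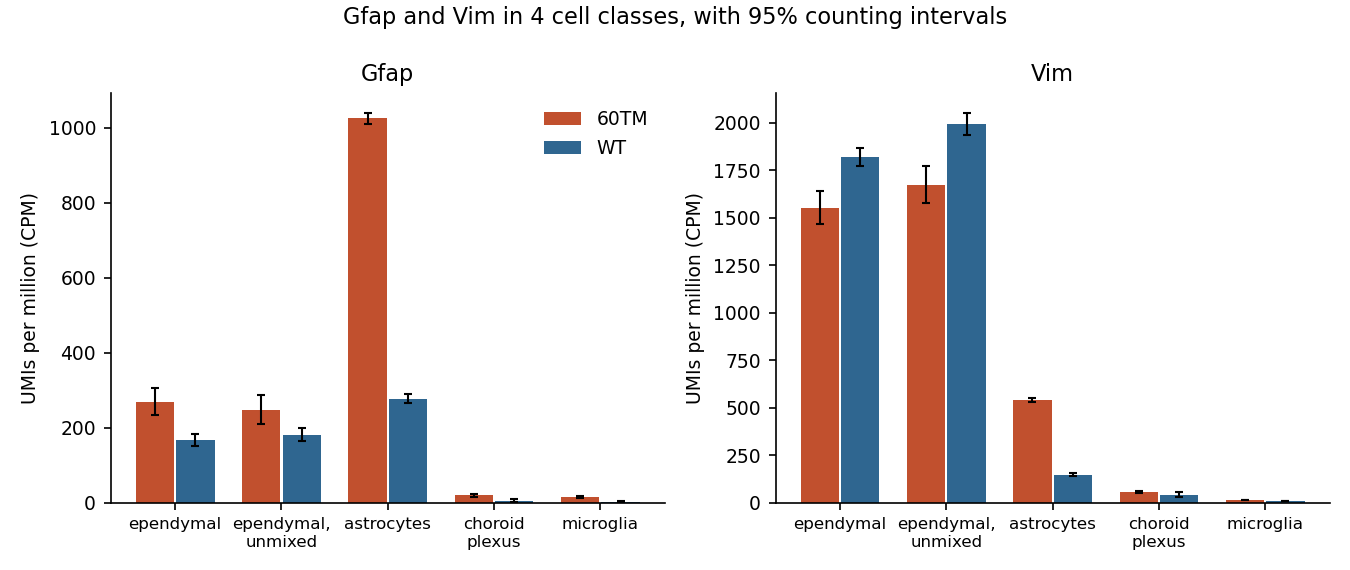
Gfap (left) and Vim (right) in CPM for ependymal cells with and without mixed barcodes, astrocytes, choroid plexus cells and microglia, 60TM bars left of WT bars; error bars are 95% Poisson intervals of the summed UMIs. The 60TM astrocyte bars stand far above the WT ones for both genes, whereas the ependymal bars differ by less than 2-fold.

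Of the other filaments, Nes was at 118 CPM in 60TM and 192 CPM in WT, a ratio of 0.612 (0.486 to 0.764). The simple epithelial keratins Krt8 and Krt18 were at 58.2 and 92.3 CPM in 60TM, against 93.6 and 108 CPM in WT, with ratios of 0.622 (0.444 to 0.852) and 0.858 (0.655 to 1.11). Synm, a partner of vimentin, was at 283 CPM in 60TM and 263 CPM in WT. In all, 1 of 8 filament genes measured, Gfap, was at least 1.5-fold higher and 2, Nes and Krt8, at least 1.5-fold lower, where 8.65% of all genes were higher and 8.56% lower; without mixed barcodes 0 were higher and the same 2 lower. Krt8 had a ratio of 4.04 where no choroid plexus gene was allowed, with no minimum of UMIs set, so it can rest on few UMIs.

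Genes of ependymal identity were mostly level in these cells, which were chosen by ependymal genes: 28 of 30 measured lay within 1.5-fold, with a median log2 ratio of -0.01. Of the 30, 2 were higher and 0 lower (all genes 8.65% and 8.56%). S100b, a calcium-binding protein, was at 553 CPM in 60TM and 573 CPM in WT. Aqp4, the water channel of glia, was at 682 CPM in 60TM and 659 CPM in WT. Zic1 and Zic2, transcription factors of dorsal and midline neural tissue, were higher, with ratios of 1.85 (1.25 to 2.68) and 2.05 (1.42 to 2.93), on 44 and 50 UMIs in 60TM and 86 and 88 in WT. Zic1 was seen in 11 cells in 60TM and 32 in WT, and was at 0 UMIs in 60TM where no choroid plexus gene was allowed.

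Interferon-induced genes were higher in 60TM ependymal cells. Of 23 listed, 11 were measured, 9 of them at least 1.5-fold higher and 0 lower (all genes 8.65% and 8.56%). Their median log2 ratio was 0.73. Without mixed barcodes the counts were the same and the median 0.83. A gene was measured with 50 UMIs over both libraries, so one low in WT can enter through its 60TM UMIs. Isg15, Ifit3 and Ifit1 had 45, 51 and 38 UMIs in 60TM and 13, 19 and 14 in WT. The count of 9 can thus be partly set by this limit. Without barcodes with 3 or more of 6 microglial genes or 4 or more of 8 oligodendrocyte, neuron or endothelial genes, 5 were measured and 4 of them were higher. Ifitm3, a membrane protein against virus entry, was at 1195 CPM in 60TM and 891 CPM in WT, a ratio of 1.34 (1.24 to 1.45), the one with the most UMIs, 945 in 60TM and 2541 in WT. Ifi27, which has close family members, was at 278 CPM in 60TM and 168 CPM in WT, a ratio of 1.66 (1.41 to 1.95). Its thinned share was 39.0% of ependymal and 82.2% of choroid plexus cells in 60TM, and 25.2% of ependymal and 83.8% of choroid plexus cells in WT.

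The largest ratios sat in a few cells. Ifit3 had 51 UMIs in 9 of 49 cells in 60TM and 19 UMIs in 14 of 150 cells in WT, a ratio of 9.68 (5.62 to 17.4), and 43.1% of the 60TM UMIs came from 1 cell. Isg15 had 45 UMIs in 4 cells in 60TM and 13 UMIs in 7 cells in WT, a ratio of 12.5 (6.62 to 25.2), and 53.3% of the 60TM UMIs came from 1 cell. Other classes showed like differences: Ifit3 was at 68.7 CPM in 60TM astrocytes and 11.9 CPM in WT astrocytes, and at 56.8 CPM in 60TM microglia and 6.39 CPM in WT microglia. Choroid plexus cells had 15 Ifit3 UMIs in 60TM and 0 in WT, with thinned shares of 0.461% in 60TM and 0% in WT, against 8.20% of ependymal cells in 60TM and 1.26% in WT. Median depths of choroid plexus cells were 18715 UMIs in 60TM and 15775 in WT. Of MHC class I genes, 0 of 5 were past 1.5-fold (all genes 8.65% higher and 8.56% lower). Without mixed barcodes, which held 43.3% of the B2m UMIs in 60TM and 69.1% in WT, 3 of 5 were higher and 0 lower. In that setting 5.78% of all genes were higher and 7.46% lower.

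Among other response lists, C4b, a complement gene that reactive glia raise, had 42 UMIs in 14 cells in 60TM and 31 UMIs in 20 cells in WT, a ratio of 4.89 (3.00 to 8.04). Mixed barcodes held 38.1% of these UMIs in 60TM and 38.7% in WT, and the ratio was 4.86 without them. Thinned shares were 8.96% of ependymal cells and 3.79% of microglia in 60TM, and 2.02% of ependymal cells and 0.495% of microglia in WT. Astrocytes had C4b at 181 CPM in 60TM and 34.5 CPM in WT, and microglia at 31.0 CPM in 60TM and 3.92 CPM in WT. Lcn2, a secreted lipocalin, had 4 UMIs in a single, mixed ependymal barcode in 60TM and 0 in WT, while 60TM astrocytes had 786 CPM and WT astrocytes 0 UMIs. Of 10 reactive astrocyte genes measured, 2 were higher and 3 lower, with a median log2 ratio of -0.11. Of 16 heat shock genes 1 was higher and 2 lower, of 12 Nrf2 targets 2 higher and 0 lower, of 7 integrated stress response genes 0 in either direction, of 15 immediate early genes 2 higher and 3 lower, of 9 metallothionein and iron genes 1 each way, of 7 complement and NF-kB genes 3 higher and 0 lower, and of 15 cholesterol synthesis genes 0 higher and 3 lower. Over all genes 8.65% were higher and 8.56% lower, so 1 or 2 genes in lists of this length are near the background. Without mixed barcodes, 0 of 9 reactive astrocyte genes were higher and 2 lower, 0 of 15 heat shock genes higher and 3 lower, 3 of 10 immediate early genes higher and 0 lower, and 1 of 4 complement and NF-kB genes higher and 0 lower. Also without them, 1 of 6 integrated stress response genes, Ddit4 (ratio 1.63), was higher and 0 lower, 1 of 12 cholesterol genes, Pmvk (1.53), higher and 3 lower, and 0 of 8 metallothionein and iron genes were past 1.5-fold; here 5.78% of all genes were higher and 7.46% lower. The 25 large-subunit ribosomal protein genes all lay within 1.5-fold. Metallothioneins Mt1 and Mt2 had ratios of 1.02 (0.987 to 1.05) and 1.05 (0.968 to 1.14). Slc7a11, the cystine importer, had a ratio of 9.02 (5.83 to 14.3), with 66.7% of its 60TM UMIs in 1 cell.

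Over all genes, 195 of 8718 (2.24%) were at least 2-fold higher in 60TM ependymal cells and 271 (3.11%) at least 2-fold lower. Without mixed barcodes, 69 of 7771 (0.888%) were higher and 139 (1.79%) lower. The extremes over all members lay largely in mixed or single barcodes. The 12 lowest, ranked by the interval bound nearest to 1, were headed by myelin genes such as Mag, and 95.2% to 100% of their WT UMIs lay in mixed barcodes; without these, Mag had a ratio of 0.789 (0.194 to 2.40). Of the 12 highest, Vtn, Snhg11, Meg3, Gria2, Kalrn, Camk2a, Grin2b, Ttr, Isg15, Cacna1e, Ptgds and Slc7a11, 11 had over 50% of their 60TM UMIs in a single barcode, and Ttr had 14.6%. Among unmixed cells the 12 highest were Ptgds, Apod, Vtn, Ttr, Isg15, Ifit3, Ifit1, Slc7a11, Flt1, Rgs5, Col1a2 and AY036118. Of these, 8 again had over 50% of their 60TM UMIs in a single barcode, such as the mural gene Rgs5 with 100% and the endothelial gene Flt1 with 93.8%. AY036118, with 391 UMIs in 43 cells in 60TM and 382 UMIs in 100 cells in WT, was spread more widely. It was also higher in all other 60TM cells together, at 275 CPM in 60TM and 107 CPM in WT, beside 495 and 134 CPM in ependymal cells.

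The 12 lowest genes among unmixed cells, by the same rank, were Ccn5, Gm37800, Hist3h2ba, 2210011C24Rik, Cryab, Sncg, Mrln, Krt19, Gm16160, Tagln, 0610009L18Rik and Lgals3, and mixed barcodes held 4.65% to 25.8% of their WT UMIs over all members. Cryab, the small heat shock protein that accumulates in Alexander disease astrocytes, had 279 UMIs in 39 of 49 cells in 60TM (353 CPM) and 2664 UMIs in 125 of 150 cells in WT (934 CPM), a ratio of 0.378 (0.333 to 0.428), and 0.459 (0.403 to 0.522) without mixed barcodes. The thinned share was 47.7% in 60TM and 60.7% in WT, against 5.37% of microglia in 60TM and 7.55% in WT. Cryab was also lower in microglia, at 96.9 CPM in 60TM and 219 CPM in WT. In all other filtered cells together it was at 906 CPM in 60TM and 1775 CPM in WT, above the ependymal level in both. The part of background RNA in the ependymal and microglial Cryab levels was not tested. Astrocytes had Cryab at 312 CPM in 60TM and 393 CPM in WT, a ratio of 0.795 (0.761 to 0.830). Sncg, gamma-synuclein, was at 231 CPM in 60TM and 525 CPM in WT, a ratio of 0.441 (0.376 to 0.514). Astrocytes held it at 0.878 CPM in 60TM and 1.09 CPM in WT, and microglia at 0.341 CPM in 60TM and 0.599 CPM in WT.

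Lgals3, galectin 3, known from motile cilia and activated phagocytes, was at 186 CPM in 60TM and 354 CPM in WT, a ratio of 0.526 (0.439 to 0.625), in 30 of 49 cells in 60TM and 130 of 150 in WT. Its thinned shares were 29.7% of ependymal cells and 0.675% of microglia in 60TM, and 47.9% of ependymal cells and 1.13% of microglia in WT. Mrln, a small regulator of the calcium pump known from muscle, had 42 UMIs in 60TM and 380 in WT, a ratio of 0.399 (0.283 to 0.549). Krt19, a simple epithelial keratin, had 11 UMIs in 60TM and 129 in WT, a ratio of 0.308 (0.150 to 0.569). Ccn5, a secreted matricellular protein, had 9 UMIs in 4 cells in 60TM and 222 UMIs in 43 cells in WT, a ratio of 0.146 (0.0660 to 0.283). Tagln, an actin-binding protein, had 27 UMIs in 60TM and 281 in WT. Among the 14 members in 60TM and 22 in WT without any choroid plexus gene, the ratio was 1.71 for Cryab, 1.12 for Sncg and 5.66 for Tagln. No minimum of UMIs was set there, so these ratios can rest on few UMIs. Other cells differed in these genes. Krt19 had 0 UMIs in the astrocytes and choroid plexus cells of both libraries, and Ccn5 was higher in 60TM astrocytes, at 8.16 CPM, than in WT ones, at 0.122 CPM (1 UMI).

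**Figure D5:**
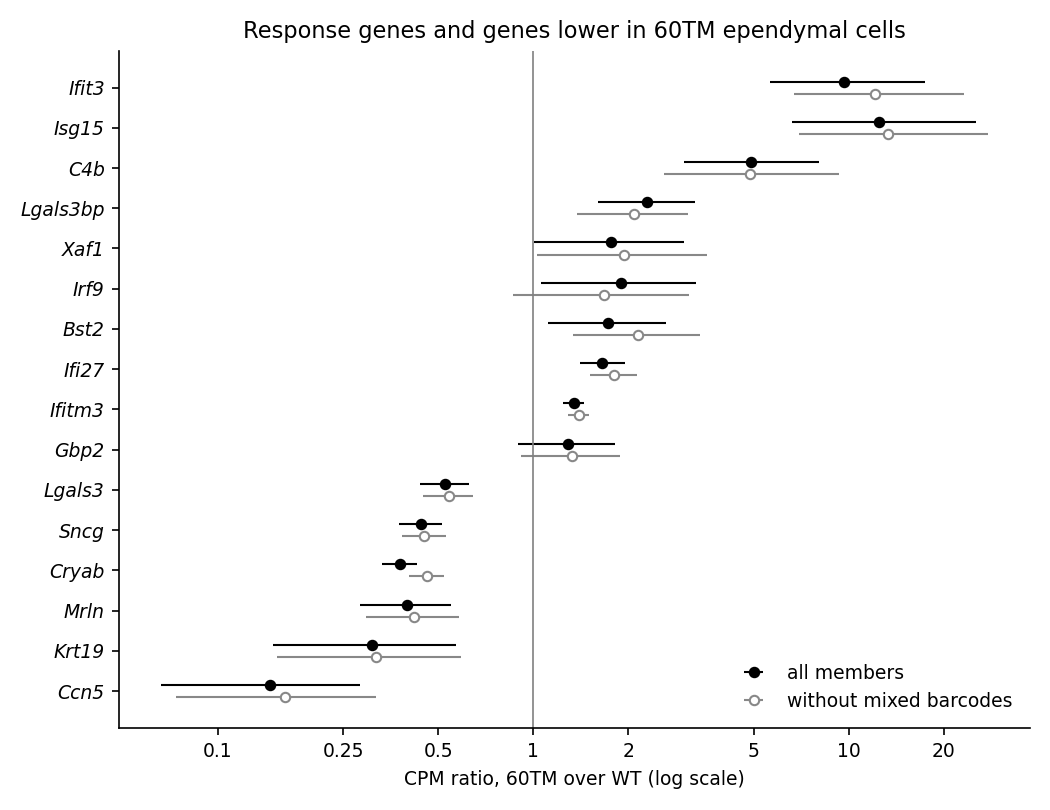
CPM ratio, 60TM over WT, on a log axis for 9 of the 11 measured interferon genes with C4b (upper rows) and for genes lower in 60TM (lower rows); filled points use all members, open points leave out mixed barcodes, and lines are 95% counting intervals. Leaving out mixed barcodes gives ratios of 0.459 for Cryab and 12.1 for Ifit3, against 0.378 and 9.68 over all members.

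Ttr, transthyretin, the main product of choroid plexus, was detected in nearly all 60TM ependymal cells. It had 205 UMIs in 46 of 49 ependymal cells in 60TM (259 CPM) and 66 UMIs in 44 of 150 in WT (23.1 CPM), a ratio of 11.2 (8.45 to 15). Microglia, which should lack it, had 1390 CPM in 60TM and 32.7 CPM in WT, above the ependymal level in both. Thinned shares were 51.0% of ependymal cells and 52.3% of microglia in 60TM, and 5.72% of ependymal cells and 6.72% of microglia in WT. The ependymal Ttr level is therefore not read as expression, and the part of background RNA in it was not tested.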

How the data were processed

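One pooled library of hippocampal cells was sequenced for each genotype with 10x Genomics 3′ chemistry. The authors deposited whole UMI counts per gene and barcode, made with Cell Ranger 5.0.0 on GRCm38, per the submitters' processing notes; other settings are not given in the sources used here. Libraries held 80684152 UMIs in 60TM and 63532407 in WT. Ependymal UMIs were summed per library and divided by their total; with 1 library per genotype no test was run. Astrocytes and microglia were barcodes with at least 5 of 6 markers of their own and fewer than 3 of the other class, and choroid plexus cells had 3 or more of Kcne2, Folr1, Clic6 and Kl. Astrocytes also had no more than 1, and choroid plexus cells fewer than 4, of the 6 ependymal rule genes. The low rule gene and cilia gene levels of these 2 classes can be partly set by that limit. Thinned shares are expectations of drawing 2000 UMIs from each cell, with the interval of the nearest whole number of cells. Medians of log2 ratios used CPM + 5. No doublets were removed in the values as reported. Named genes were list members, with those of most UMIs as examples, and the 12 highest and 12 lowest ratios by the interval bound nearest to 1 among genes with at least 50 UMIs, without mitochondrial, Rpl, Rps and rule genes. Some genes are not reported here. Members, lists and named examples were chosen with earlier results of these data known. Intervals were checked only on simulated Poisson counts of the summed cells, the model they assume. That check cannot show their coverage where UMIs are clustered in single cells, as they are for many genes here. Promoters came from RefSeq (GRCm38.p6) and gene coordinates from GENCODE M21. Python 3.11.15, scipy 1.17.1 and scanpy 1.11.5 (Scrublet, Leiden) were used.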

Additional observations from a re-analysis of the deposited data

How the results depend on the processing

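The ratio of ependymal shares ran from 0.227 to 0.504 over 10 alternatives, the highest where no choroid plexus marker was allowed. The Gfap ratio stayed above 1 in all 14 alternatives run (1.28 to 6.07): 6.07 with 3 of 6 rule genes, 2.93 with no choroid plexus marker and 1.28 thinned to 2000 UMIs. The Vim ratio crossed 1: 0.778 without Scrublet doublets, 1.13 with 3 and 0.918 with 5 of 6 rule genes, 1.45 with no choroid plexus marker, 0.912 with limits of 200 genes and 5% mitochondrial UMIs, 1.03 without barcodes with markers of other classes, 0.979 as a mean over cells, 0.961 thinned and 0.797 with the library profile subtracted. The median log2 ratio of cilia genes was -0.47 with 3 of 6 rule genes and 0.20 with no choroid plexus marker. Cilia genes at least 1.5-fold higher numbered 7 with 5 of 6 rule genes, 14 as a mean over cells and 2 thinned. Those lower numbered 86 with 3 of 6 rule genes, 2 with no choroid plexus marker, 18 without barcodes with markers of other classes, 21 as a mean over cells and 14 at 20 UMIs a gene. Interferon genes at least 1.5-fold higher numbered 1 of 1 measured with no choroid plexus marker, 4 of 5 without barcodes with markers of other classes, 1 of 2 thinned and 3 of 5 at 100 UMIs a gene; fewer genes were measured in each. Genes at least 2-fold higher numbered 520 with 3 and 83 with 5 of 6 rule genes, 37 with no choroid plexus marker, 107 without barcodes with markers of other classes, 409 as a mean over cells, 12 thinned, 363 with the profile subtracted, 75 by Leiden cluster, 544 at 20 and 71 at 100 UMIs a gene, and 69 without mixed barcodes. Genes at least 2-fold lower numbered 174 without doublets, 80 with no choroid plexus marker, 712 as a mean over cells, 31 thinned, 165 by Leiden cluster, 628 at 20 and 131 at 100 UMIs a gene, and 139 without mixed barcodes. The cause of the other shifts was not tested.

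Of the named genes at least 1.5-fold apart, these changed direction. No minimum of UMIs was set for these ratios, so they can rest on few UMIs and are not read as reversals. At least 50 UMIs were reached by 472 genes with no choroid plexus marker and by 1232 thinned, against 8718 as reported. Without Scrublet doublets the ratio was 0.499 for Col1a2 and 0.828 for Ptgds. With limits of 200 genes and 5% mitochondrial UMIs it was 0.502 for Apod, 0.550 for Col1a2 and 0.284 for Ptgds. Rgs5 was at 0.939 with 3 of 6 rule genes and 0.688 as a mean over cells. Cacna1e and Camk2a were at 0.554 and 0.484 with 5 of 6 rule genes, and at 0.554 and 0.514 by Leiden cluster. With no choroid plexus marker, Col1a2, Isg15 and Rgs5 were at 0 UMIs in 60TM (ratio 0), as was Zic1, and ratios were 1.71 for Cryab, 2.42 for Mag and for Bbs5, 4.85 for Bbs2, 4.04 for Krt8, 1.21 for Dnaaf1 and for Rsph3b, 0.606 for Agbl4 and for Cep89, 1.12 for Sncg and 5.66 for Tagln. Thinned, 0610009L18Rik was at 1.01, Agbl4 at 0.255, Bbs2 at 1.11, Cep89 at 0.948, and Col1a2, Flt1 and Rgs5 at 0. Without barcodes with markers of other classes, Cacna1e and Rgs5 were at 0, Ahi1 at 0.809, Mag at 4.02, Mobp at 6.29, Mog at 1.68, Tubb4a at 1.68 and Ugt8a at 2.52. Without mixed barcodes, Cacna1e was at 0.646, Camk2a at 0.507, Gria2 at 0.484, Grin2b at 0.888, Mobp at 1.68 and Mog at 2.03. Without the deepest 60TM barcode, Flt1 was at 0.303 and Rgs5 at 0. The last 2 alternatives were chosen after seeing the data. No paired analysis was possible because each genotype is 1 library. The 790555 ependymal UMIs in 60TM, from 49 cells, limit the precision of every ratio.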
